A study of Rattus norvegicus with 59 samples.

Results

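The regions described here are the 618 of 6171 genomic bins with the highest density of H3K9me2 in rat heart muscle nuclei. They were chosen by measured values: for each bin, the log2 RPM (reads of the bin scaled to a fixed total) of the control and of the sham-operated group were averaged, and log2 of the bin length in kb was taken off. Bins at or above the 90th percentile of this density, 0.484 RPM per kb, are the members. Together they cover 191 Mb, or 7.53% of the 2532 Mb that all bins cover on chromosomes 1 to 20. No bin lies on a sex chromosome.

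Male Sprague Dawley rats gave the nuclei, taken from the left ventricle and sorted for PCM1, a centriolar satellite protein that marks cardiomyocyte nuclei. The exercise experiment used animals of about 280 g, which ran treadmill intervals for 6 weeks (called trained here) or stayed untrained (control). Animals of the surgery experiment, of about 170 g, had a suture tightened around the ascending aorta (banded) or underwent the operation without tightening (sham), and banded rats were kept after 6 weeks only if the heart was enlarged and not failing. Each group had 4 samples for immunoprecipitation of H3K9me2 and 4 for H3K27me3 from nucleosomes released with micrococcal nuclease, but the deposited tables hold 1 value per group and bin. There is therefore no replicate error, no test and no known read depth behind any value below. The identity of the sorted nuclei was not checked against marker genes, because no table used here pairs the IDs of the RNA files with the names of those markers. The labels do not say whether each sample came from a separate animal.

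H3K9me2 is the dimethylated form of lysine 9 on histone H3. It is written mainly by the paired methyltransferases G9a and GLP, forms broad domains, and is associated with silent chromatin, much of it near the nuclear lamina. H3K27me3 is written by the Polycomb repressive complex PRC2 and marks a different class of silenced genes, among them developmental regulators. The bins come from circular binary segmentation, a method that cuts a chromosome where the average signal steps up or down. Each bin is thus a stretch of fairly even signal in the samples that set its borders, and bins differ greatly in length.

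The set followed the control column more closely than the sham column, although both entered the rule equally. The SD of log2 density over all 6171 bins was 0.48 in control, 0.44 in trained, 0.29 in sham and 0.30 in banded rats. The 90th percentile of density was 0.566 RPM per kb in control, 0.540 in trained, 0.455 in sham and 0.465 in banded rats. Both exercise columns thus spread over a wider range of density than both surgery columns. Of the 618 members, 469 were also in the densest 10% of the control column taken alone, 491 in that of the trained column, 335 in that of the banded column and 220 in that of the sham column. Only 112 members (18.1%) were in the densest 10% of all 4 columns, and 57 members (9.22%) were below the median bin in sham rats. The densest 10% of bins of the control and sham columns shared 125 bins, which is 20.2% of each list, while those of control and trained shared 545 (88.2%) and those of banded and sham 318 (51.5%).

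**Figure D1:**
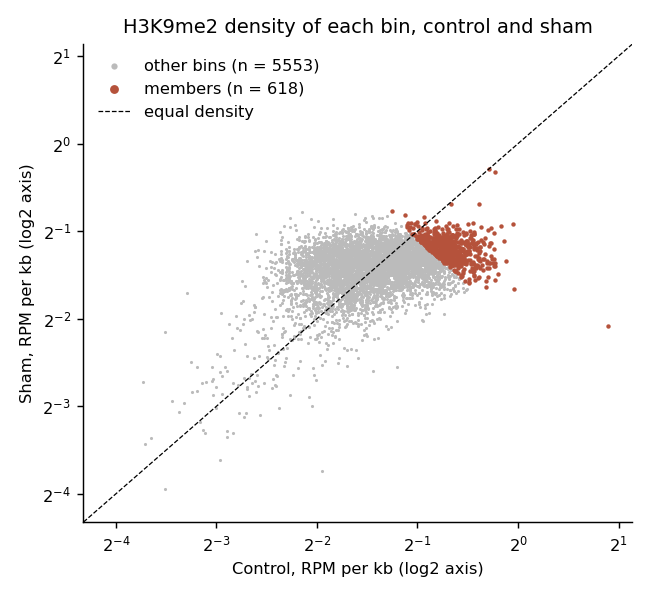
Each point is a bin, with its H3K9me2 density in control rats on the x axis and in sham rats on the y axis (RPM per kb, both axes log2). Members are red and other bins grey. Most members lie below the line of equal density, with control values spread more widely than sham values, and 1 member stands far to the lower right.

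The members' median density was 0.618 RPM per kb in control rats, against 0.362 in the other 5553 bins, a ratio of 1.71. The trained column took no part in the choice, but its Spearman correlation with control over all bins was 0.98. In trained rats the median was 0.589 against 0.366 (ratio 1.61). In sham rats it was 0.439 against 0.380 (ratio 1.16). In banded rats, also not used in the choice, it was 0.471 against 0.375 (ratio 1.26). The middle 50% of the members ran from 0.568 to 0.677 RPM per kb in control and from 0.410 to 0.466 in sham rats. Both columns chose the members, so the gap between these ranges is not independent of the rule. Over all bins, the middle 50% ran from 0.297 to 0.473 in control and from 0.344 to 0.421 in sham rats. The members stood out most in the exercise experiment, in its trained as in its control column.

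**Figure D2:**
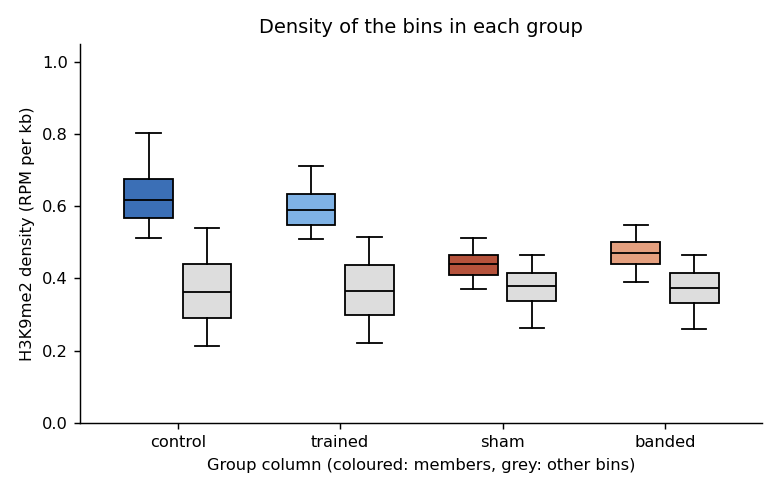
H3K9me2 density (RPM per kb) in each group column. Coloured boxes are the 618 members and grey boxes the other 5553 bins. Boxes show the median and the middle 50% of bins, and whiskers run from the 5th to the 95th percentile over bins, not over animals.

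Within the set, density was narrow for most members and high for a few. The mean of control and sham ranged from 0.484 to 0.826 RPM per kb, with a median of 0.514 and a 75th percentile of 0.540. Just inside the threshold lay bins on chromosome 4 (183625001 to 183685001), chromosome 3 (3445001 to 3485001) and chromosome 9 (92335001 to 92505001). Just outside lay bins on chromosome 19 (21835001 to 21985001), chromosome 17 (86805001 to 87335001) and chromosome 16 (78805001 to 79305001). All 6 had a density of 0.484 RPM per kb, so nothing separates the set from the bins next in order.

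The densest member was the start of chromosome 2 (1 to 1445001), and it was dense in every group. It held 0.853 RPM per kb in control, 0.865 in trained, 0.800 in sham and 0.857 in banded rats. The second was the longest member, 7.43 Mb on chromosome 16 (23645001 to 31075001). It had the same value, 12.57 log2 RPM or 0.818 RPM per kb, in all 4 groups. That value is the largest in each column. Sorted, the 4 columns hold nearly the same values, so the equality of their largest values is a property of the columns and says nothing on whether this bin differed between groups. On chromosome 14 (3735001 to 4995001), a member of 1260 kb held 0.763 RPM per kb in control, 0.771 in trained, 0.619 in sham and 0.680 in banded rats. A 950 kb member on chromosome 17 (53105001 to 54055001) held 0.630 in control, 0.707 in trained, 0.620 in sham and 0.714 RPM per kb in banded rats. These 4 bins, each of 950 kb or more, were the members with the highest density in their lowest group.

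The shorter bins among the 10 densest were higher in both exercise columns than in both surgery columns. The 40 kb bin on chromosome 8 (34615001 to 34655001) held 0.966 RPM per kb in control, 0.947 in trained, 0.531 in sham and 0.684 in banded rats. On the same chromosome, a 90 kb bin (49635001 to 49725001) held 0.889, 0.836, 0.520 and 0.636 RPM per kb in the same order. The 60 kb bin on chromosome 1 (215545001 to 215605001) departed most: 1.86 RPM per kb in control and 1.92 in trained rats, but 0.236 in sham and 0.303 in banded rats. Its control and trained values were the highest of all bins, while its sham and banded values were below the median of all bins, so the control column alone brought it into the set. The other 4 of the 10 densest lay on chromosome 7 (115935001 to 116065001), chromosome 3 (169915001 to 170005001), chromosome 13 (86875001 to 86985001) and chromosome 10 (70485001 to 70785001), with 0.810 to 0.905 RPM per kb in control and 0.463 to 0.512 in sham rats.

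Members were somewhat shorter than other bins. Their median length was 160 kb, against 190 kb in the other bins, and lengths ran from 20 kb to 7430 kb. Bins shorter than 100 kb made up 29.9% of members and 23.5% of the others, and bins of 1000 kb or more 5.83% and 9.08%. Of the bins over 50 and up to 100 kb, 12.6% were members, and of those over 1000 kb 6.43% were. Length enters the rule, so these shares describe the choice. After the chromosome 16 bin, the next longest members were on chromosome 6, with 3700 kb (42795001 to 46495001, 0.490 RPM per kb) and 2030 kb (130255001 to 132285001, 0.530 RPM per kb). A member of chromosome 10 (21155001 to 23185001, 0.504 RPM per kb) was also 2030 kb long. In all, 4 members had the shortest length of 20 kb. Of these, bins on chromosome 1 (118865001 to 118885001) and chromosome 3 (86765001 to 86785001 and 170435001 to 170455001) had densities of 0.488, 0.496 and 0.569 RPM per kb.

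The share of a chromosome in the set varied widely. Chromosome 16 had 18.6% of its covered length in members, chromosome 10 had 16.1% and chromosome 19 had 12.2%. The chromosome 16 value rests on the 7.43 Mb bin: without it, 10.3% remained. Without its own longest member, chromosome 10 kept 14.2%, the highest of the 20 chromosomes by that measure. At the other end, members took 1.11% of chromosome 11, 2.00% of chromosome 2 and 2.69% of chromosome 20. On chromosome 2 this was 17 of 482 bins, and the dense bin at its start made up 1.445 of the 5.125 Mb. By number of bins the order differed, with chromosome 8 highest at 50 of 340 bins (14.7%), followed by chromosome 3 at 68 of 468 (14.5%). The median density of all bins varied little between chromosomes, from 0.357 to 0.397 RPM per kb.

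**Figure D3:**
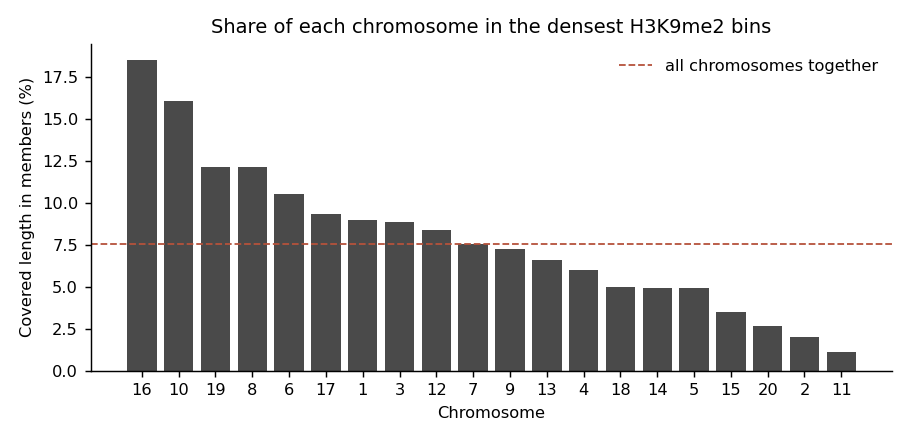
Percentage of the covered length of each chromosome that lies in members, ordered from highest to lowest. The dashed line is the share over all chromosomes, 7.53%. Chromosomes 16 and 10 stand highest and chromosome 11 lowest.

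Most members did not adjoin another member. Of the 618, 472 touched no other member and 146 (23.6%) lay in 65 runs of adjoining members, 49 of them pairs and 16 of 3 bins. No other set of 618 bins was counted in this way, so these counts have no background. The bins adjoining members, taken at 1078 sides, had a median density of 0.400 RPM per kb, against 0.381 over all bins. Members in runs are among the adjoining bins, and a bin with members on both sides counts for each side. Of the 16 runs of 3 bins, the longest in kb lay on chromosome 19 (17975001 to 19575001, 1600 kb), chromosome 10 (69055001 to 70465001, 1410 kb) and chromosome 8 (106335001 to 107365001, 1030 kb). Some pairs covered more, up to 1850 kb on chromosome 10 (8595001 to 10445001). The chromosome 10 run of 3 bins was even, with its 3 bins at 0.508 to 0.582 RPM per kb, and a further member of the 10 densest began 20 kb beyond its end. The median distance of members from the nearer end of the covered chromosome was 28.7 Mb, against 30.7 Mb in other bins. A midpoint within 5 Mb of an end was found in 12.1% of members and 8.66% of other bins. A gap or a chromosome end bordered 23.6% of members and 24.3% of other bins, so these shares were close.

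Members also carried more H3K27me3, a mark the rule did not use. H3K27me3 density, averaged over control and sham and over the overlapped H3K27me3 bins, had a median of 0.805 RPM per kb in members and 0.330 in 5538 other bins, a ratio of 2.44. H3K27me3 was above the median of all bins in 599 of 618 members (96.9%) and in 44.8% of other bins. It was in the top 10% for H3K27me3 in 322 members (52.1%), against 5.31% of other bins. The median rose over 10 equal classes of H3K9me2 density, from 0.233 RPM per kb in class 1, the least dense, through 0.591 in class 9 to the members' value. The excess was present in each H3K27me3 column: the ratio of medians was 2.67 in control, 2.78 in trained, 2.21 in sham and 2.18 in banded rats.

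**Figure D4:**
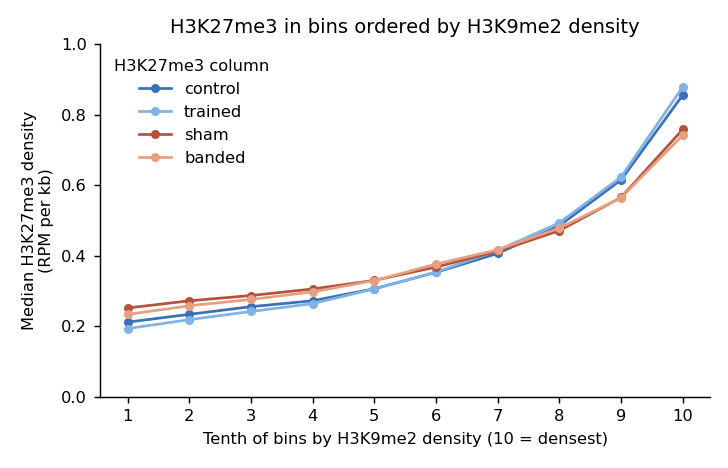
Median H3K27me3 density (RPM per kb) in each group column over 10 equal classes of all bins ordered by H3K9me2 density. The members are class 10. All 4 lines rise with H3K9me2 density, and the control and trained lines reach the highest values.

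The excess of H3K27me3 depended on which H3K9me2 column chose the bins. Across 6156 bins, the Spearman correlation of the density of both marks within a group was 0.80 in control, 0.80 in trained, 0.33 in banded and 0.16 in sham rats. Bins of a group share the samples behind the column and any bias of base composition or mappability, so these are descriptions. When the densest 10% was taken from the sham column alone, the median H3K27me3 density was 0.349 RPM per kb in those bins and 0.355 in the rest, so there was no excess. From the control column alone it was 0.910 against 0.329. H3K27me3 itself kept its order between experiments, with a correlation of 0.97 between control and sham, where H3K9me2 had 0.31. Input chromatin was sequenced for each group, but input values were not analysed here, and the part of copy number, mappability or nuclease preference in the density of either mark was not tested.

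The members with most H3K27me3 lay on chromosome 4 (80445001 to 80565001), with 1.97 RPM per kb, and in adjoining bins near the end of chromosome 7 (141645001 to 141735001 and 141735001 to 141865001), which take their value of 1.81 from the same H3K27me3 bin. All 3 had 0.748 to 0.918 RPM per kb of H3K9me2 in control rats, above the members' median, and 0.373 to 0.394 in sham rats, near the median of all bins in that column (0.386). The members with least H3K27me3 lay on chromosome 9 (4885001 to 4965001, 0.137 RPM per kb), chromosome 18 (75655001 to 76005001, 0.239) and chromosome 15 (11385001 to 11535001, 0.264). The chromosome 18 and chromosome 15 bins were also among the few members with more H3K9me2 in sham than in control rats. The start of chromosome 2 and the 7.43 Mb bin of chromosome 16 had 0.642 and 0.597 RPM per kb of H3K27me3, below the members' median.

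Between the experiments, members were lower in sham than in control rats. The median difference, sham minus control, was -0.50 on the log2 scale in members and 0.019 in other bins. It was below 0 in 600 of 618 members (97.1%) and 47.7% of other bins. A difference of more than 0.5 downward was seen in 313 members (50.6%), against 12.4% of all bins, and of more than 0.3 downward in 485 members (78.5%), against 25.5% of all bins. Upward, 2 members passed 0.3 and 0 passed 0.5, against 25.8% and 14.2% of all bins. These columns made the choice through their mean. With the densest 10% taken from the sham column alone, the median turned to 0.17, and 62.5% of those bins were higher in sham than in control rats. The difference fell from 0.32 in density class 1 to -0.31 in class 9, so the members lie at the end of a trend over all bins. The classes are ordered by the mean of the same columns. Log2 density spread more widely in control (SD 0.48) than in sham rats (SD 0.29), so a fall over these classes is built into the ordering. The control and sham groups also differ in start weight, surgery and experiment, which cannot be told apart here.

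Sham minus control was further below 0 in short members, but the same columns chose these bins. Its median was -0.80 in the 62 members of up to 50 kb, -0.45 in the 163 over 200 and up to 500 kb and -0.17 in the 34 over 1000 kb. In other bins of the same lengths it was -0.076, 0.051 and -0.0052. Members of up to 50 kb held a median of 0.692 RPM per kb in control and 0.395 in sham rats. Those over 1000 kb held 0.542 and 0.480. The gradient with length thus describes the chosen bins. Trained minus control had a median of 0 over 1000 kb, in members and in other bins. Whether the near-equal sorted values of the columns limit differences in long bins was not tested. The lowest values were those of the chromosome 1 bin named above, at -2.98, of chromosome 20 (2695001 to 2795001) at -1.62 and of chromosome 6 (77975001 to 78015001) at -1.33. The highest were those of the chromosome 18 bin, at 0.49, of chromosome 1 (45045001 to 45495001) at 0.31 and of the chromosome 15 bin, at 0.19. The chromosome 18 bin held 0.419 RPM per kb in control, 0.440 in trained, 0.587 in sham and 0.593 in banded rats, so both surgery columns were above both exercise columns. H3K27me3 was lower in sham than in control rats in 554 members (89.6%) and 39.4% of other bins, with a median of -0.20 on the log2 scale in members and 0.065 in other bins.

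Treadmill training was the first of the study's means of inducing hypertrophy. Members were slightly lower in trained rats, with a median of -0.067 on the log2 scale against 0.0086 in other bins, and 504 of 618 (81.6%) were below 0 against 45.3% of other bins. By more than 0.3, 12 members were lower (1.94%), against 0.519% of all bins, and 0 were higher, against 0.275% of all bins. No member passed 0.5: 0 were lower and 0 higher, where all bins had 0.0486% and 0%. The lowest members were short: on chromosome 20 (49755001 to 49795001) the density was 0.658 RPM per kb in trained and 0.873 in control rats, a difference of -0.41. The chromosome 3 bin of 20 kb (86765001 to 86785001) differed by -0.40 and a 50 kb bin of chromosome 7 (41075001 to 41125001) by -0.37. The highest was the 950 kb bin of chromosome 17, at 0.17, followed by chromosome 3 (127945001 to 127995001) at 0.14 and chromosome 1 (134085001 to 134175001) at 0.12.

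Banding of the aorta was the other means of inducing hypertrophy. Members were slightly higher in banded rats, with a median of 0.10 against 0.0014 in other bins, and 523 of 618 (84.6%) were above 0 against 50.3% of other bins. By more than 0.3, 28 members were higher (4.53%), against 1.77% of all bins, and 0 were lower, against 3.66% of all bins. By more than 0.5, 1 member was higher (all bins 0.0324%) and 0 were lower (all bins 0.113%). That member was a 40 kb bin of chromosome 5 (111285001 to 111325001), with 0.567 RPM per kb in banded and 0.388 in sham rats, a difference of 0.55. It held 0.853 RPM per kb in control and 0.701 in trained rats, so its banded value stayed below both. Next came chromosome 2 (89835001 to 89885001) at 0.47 and chromosome 3 (164805001 to 164845001) at 0.46. The lowest were chromosome 3 (149215001 to 149245001) at -0.16, chromosome 5 (155685001 to 155735001) at -0.14 and chromosome 4 (181105001 to 182815001) at -0.14.

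Both treatment differences moved over the density classes with opposite slopes. Trained minus control went from a median of 0.038 in class 1 to -0.067 in members, and banded minus sham from -0.078 to 0.10. The median of members was below 0 for trained minus control on 20 of 20 chromosomes and above 0 for banded minus sham on 20 of 20. Each group has 1 column that all chromosomes share, so they are not replicates and these counts are a description. The control and sham columns chose the members and the trained and banded columns did not, so neither difference is independent of the rule. With the densest 10% taken from the trained and banded columns, a choice made after the data were seen, 527 members were shared and the medians were -0.056 and 0.12. With the sham column alone, both signs turned, to 0.038 and -0.035. In 432 members (69.9%) the order was control, trained, banded and sham from high to low, against 20.4% of other bins, so that each treated value lay between its own control and the treated value of the other experiment. Both exercise columns were above both surgery columns in 584 members (94.5%) and 36.9% of other bins.

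**Figure D5:**
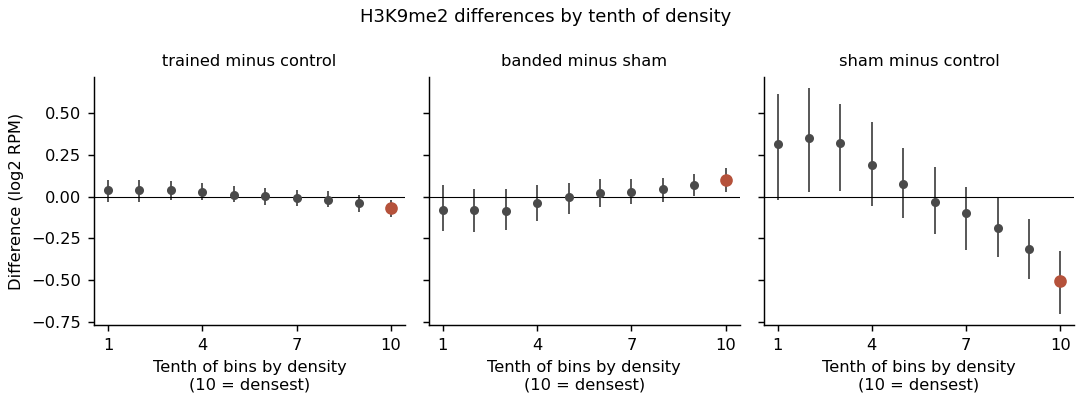
Median difference in H3K9me2 (log2 RPM) over 10 classes of bins by density, for trained minus control, banded minus sham and sham minus control. Lines span the middle 50% of bins, and the members are the red point at class 10. The sham minus control values cover a far wider range than both treatment differences.

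H3K27me3 in members differed little between treated rats and their controls. Trained minus control had a median of 0.018 on the log2 scale in members and -0.022 in other bins, and 35.3% of members were lower in trained rats, against 60.4% of other bins. Banded minus sham had a median of -0.030 in members and -0.024 in other bins, and 66.3% of members were lower in banded rats, against 60.7% of other bins, so members were close to the background here. Both medians were small beside the sham minus control difference of either mark.

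The 112 members in the densest 10% of every column are those that each column alone would also have chosen. They cover 51.0 Mb and were longer than the other members, with a median of 270 kb against 145 kb. Their median density was 0.631 RPM per kb in control, 0.622 in trained, 0.478 in sham and 0.520 in banded rats. Sham was below control in 111 of them (median difference -0.39, lowest -0.97) and equal in the chromosome 16 bin. Banded was above sham in 105 (median 0.12), and trained below control in 86 (median -0.032). Over all bins, these 3 directions were found in 52.7%, 53.8% and 48.9%. To enter, a bin had to reach 0.566 RPM per kb in control, 0.540 in trained, 0.465 in banded and 0.455 in sham rats. The limits for entry thus lie in the same order, so the counts partly restate the choice. H3K27me3 of the 112 members had a median of 0.810 RPM per kb, against 0.805 in the other 506 members. After the 4 long bins described above, the highest by their lowest group were chromosome 6 (112225001 to 112335001), chromosome 19 (45925001 to 46415001) and the 40 kb bin of chromosome 8, each with at least 0.531 RPM per kb in every group. This subset was taken after its values were seen and is described only.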

How the data were processed

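Chromatin from PCM1-positive nuclei was measured in 4 groups. The authors deposited log2 RPM values per bin, 1 column per group and mark, over bins from circular binary segmentation, per the file headers and names. How the 4 samples of a group were combined, whether input was subtracted and which samples set the bin borders is, like the genome build, not given in the sources used here; coordinates are those of the files. Without roles, the submitters' processing notes list edgeR, R 2.15.1, SAMtools and Bowtie. Sorted, the 4 H3K9me2 columns differed by at most 0.027 on the log2 scale at any rank (H3K27me3: 0.18), and their sums were equal to 3 digits. Such columns look quantile-normalized, which no source used here states; in them a change over the whole genome cannot be seen.

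Tables were computed with pandas 2.3.3, scipy 1.17.1 and numpy 2.4.6 under Python 3.11.15, and figures drawn with matplotlib 3.10.9. The rule and the overlap averaging were tested on simulated data. In the test of the rule, all simulated columns shared the same dense bins. That test did not cover columns that differ as control and sham do here. H3K27me3 was averaged over overlapping bins weighted by overlapped length, where at least 50% of a bin was covered; 15 other bins were left out. With 1 value per group, counts past 0.3 or 0.5 on the log2 scale stand in place of tests. Bins were named by rank: the 10 densest, and 3 at each end of threshold, length, difference, H3K27me3, run (by number of bins, then length) and chromosome orders. Members and lists were chosen with earlier results of these data known. RNA tables were not used, since no table of the files' build places their gene IDs on bins.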

Additional observations from a re-analysis of the deposited data

How the results depend on the processing

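The direction of all 3 H3K9me2 differences held under every alternative run except the choice by the sham column alone. That choice gave trained minus control 0.038, banded minus sham -0.035 and sham minus control 0.17 on the log2 scale, a median length of 270 kb, an end distance of 33.5 Mb, 23.5% of bins in the densest 10% of the trained column and H3K27me3 of 0.349 RPM per kb. The control column alone gave -0.091, 0.12 and -0.63 for the same differences, 125 Mb, 120 kb, 88.2% in the densest 10% of the trained and 38.0% in that of the banded column, and H3K27me3 of 0.910. At the 95th percentile the differences were -0.077, 0.12 and -0.59, with 87.2 Mb, 48.5% in the densest 10% of the banded column and H3K27me3 of 0.913. At the 80th percentile they were -0.052, 0.082 and -0.40, with 404 Mb, 190 kb, 84.6% and 66.1% in the densest 10% of the trained and banded columns, and H3K27me3 of 0.676. Without bins under 100 kb they were -0.052, 0.087 and -0.42, with a median length of 250 kb. With a pseudocount at the 10th percentile of RPM they were -0.057, 0.073 and -0.39. End distance as a share of the chromosome was 23.2%.

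The next alternatives were chosen after seeing the data. Choosing by the trained and banded columns gave -0.056, 0.12 and -0.47, 75.6% and 62.6% in the densest 10% of the trained and banded columns, and H3K27me3 of 0.758. Scaling the columns to equal spread gave -0.053, 0.086 and -0.43, 200 kb, 70.7% and 60.7% in the same, and H3K27me3 of 0.753. The cause of these shifts was not tested. Of 69 values under alternatives, 19 moved by less than their limit, 47 by more, and 3 changed sign. The limit was a 95% interval over bins for medians and an exact binomial one for shares, and 1.5 times for covered length.

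No paired analysis was possible because the files used here hold 1 column per group, with no values per sample and no test. For the same reason leaving out a replicate was not possible, the read depth behind each value is unknown, and a difference cannot be set against the spread between animals.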
